A study of Mus musculus with 4 samples.

Results

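The genes described here serve the homing of lymphocytes and the building of lymphoid tissue. They are the 9 genes Glycam1, Madcam1, Fut7, Cxcl13, Ccl19, Ccr7, Cxcr5, Ltb and Lta, out of 34844 gene names on the array. The list was chosen from the signal values of these same 4 arrays, so the differences of its genes are given as a description and without a test. All 9 genes had at least 1 probe bright enough to enter the comparison, together with 22312 genes in all.

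Gene expression in salivary glands (SGs) was measured on 1-colour whole mouse genome arrays, which report the brightness of 60-base probes after hybridisation of Cy3-labelled cRNA. The 2 groups were Myd88-null mice (Myd88-/-, labelled Myd88-KO, 2 arrays) and wild-type mice (Myd88+/+, labelled Wildtype, 2 arrays), all C57/BL6, labelled female and 10 weeks of age. Each sample was total RNA of the submandibular (SMGs) plus the sublingual glands, from which, according to the labels, lymph nodes, connective tissue and fat were dissected away. Both genotypes came from heterozygous parents; the study's text differs from the labels in places on the glands and on the number of mice, and the labels were followed.

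Lymphocytes leave the blood where endothelial cells of high endothelial venules display sugar-bearing mucin-like proteins and integrin ligands, and they are then placed by chemokines that stromal cells make. Lymphotoxin, a membrane-bound or secreted protein of the tumour necrosis factor family, keeps those venules and stromal cells in their differentiated state through the lymphotoxin beta receptor. In mucosal and glandular tissue such structures appear around lymphocyte clusters, and lymph nodes lie next to the SMGs.

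Values below are log2 processed signal minus the 75th percentile of the array, so 0 is the brightness that 75% of all non-control spots do not exceed. That percentile stood at 256 intensity units on Myd88-/- array 1, 237 on Myd88-/- array 2, 321 on Myd88+/+ array 1 and 269 on Myd88+/+ array 2. Signal over background differed between arrays within each genotype. The share of probes that passed the software's mark for signal well above background was 52.2% on Myd88-/- array 1 but 68.4% on array 2. For the Myd88+/+ genotype it was 74.2% on array 1 and 55.1% on array 2. Myd88-/- array 1 and Myd88+/+ array 2 were thus the pair with weaker signal over background, which matters for dim probes.

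MyD88 is the adaptor through which most Toll-like receptors and the interleukin-1 receptor family signal. Its probe, printed in 10 spots, did not read lower in the knockout. It gave 1.51 and 1.41 on the Myd88-/- arrays against 1.15 and 1.07 on the Myd88+/+ arrays. It lies from base 1629 of the transcript, and which part of the gene was deleted is not given in the sources used here. It therefore could not check the genotype labels. Hprt, a housekeeping gene, gave 3.35 and 3.26 against 3.28 and 3.20, and its arrays overlapped; its difference of 0.06 was −0.01 after quantile normalization.

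Of the 9 genes, 8 read lower in the Myd88-/- SGs by the brightest probe, and 6 of them without overlap of the arrays. The 6 were Glycam1, Fut7, Cxcl13, Ccr7, Cxcr5 and Ltb. Madcam1 read higher without overlap on this probe, and Ccl19 and Lta overlapped. Over all 22312 genes tested, 18.7% were lower and 33.2% higher on both Myd88-/- arrays than on both Myd88+/+ arrays. These shares were 24.6% and 25.9% with the 75th percentile of probes detected on all arrays, and 8.37% and 5.3% with median scaling, so the balance between them depends on the scaling. Since the list was chosen on this contrast, nothing is read from the count of 8. The median log2 difference was −1.96 over the 9 genes and 0.06 over all genes tested. The median of the 9 genes was −1.25 without Myd88+/+ array 1 and −1.15 with normexp background correction. In RNA of whole glands, fewer cells of a type and less RNA per cell cannot be told apart.

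**Figure D1:**
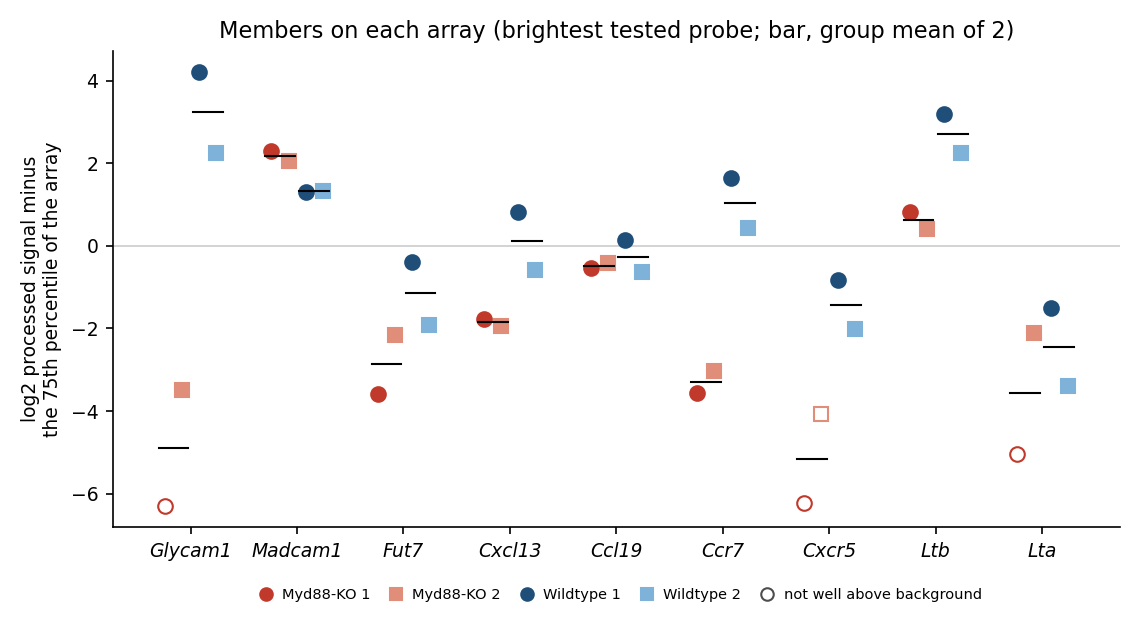
Log2 processed signal minus the 75th percentile of the array (y axis) for the brightest tested probe of each of the 9 genes (x axis) on the 2 Myd88-KO and the 2 Wildtype arrays. Open marks are not well above background and bars are means of 2 arrays; Glycam1 spans −6.29 to 4.2, and only Madcam1 has both Myd88-KO arrays above both Wildtype arrays.

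Glycam1 encodes a secreted mucin-like protein of high endothelial venules that carries sugar ligands for lymphocytes. It is measured by 1 probe (mm9, chr15:103393339-103393398, minus strand) that starts at base 419 of the transcript. Madcam1, the mucosal addressin bound by the integrin alpha4 beta7, is measured by 2 probes (chr10), and Ccl19, a ligand of Ccr7, by 3 probes (chr4). The 3 probe sequences that follow, as printed on the array, are 1 for each of these genes.
Glycam1 probe from base 419: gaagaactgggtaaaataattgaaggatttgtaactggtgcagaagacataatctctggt
Madcam1 probe from base 736: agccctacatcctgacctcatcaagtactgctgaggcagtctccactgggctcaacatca
Ccl19 probe from base 415: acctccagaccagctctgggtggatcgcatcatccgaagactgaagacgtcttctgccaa
No run of 25 bases of any of the 13 probes of the 9 genes was found in another probe of the array.

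Glycam1 gave 4.2 and 2.26 on the Myd88+/+ arrays, 5904 and 1291 intensity units. On Myd88-/- array 2 it gave −3.48, or 21.2 units. On Myd88-/- array 1 it was not well above background, and its value there, −6.29, was a surrogate that the scanner software puts in place of a spot too dim to measure. Both Myd88-/- arrays lay far below both Myd88+/+ arrays. The log2 difference of the group means was −8.12, which includes the surrogate. With only the array that measured it, the difference was −6.71, a 105-fold lower signal. The Myd88+/+ arrays themselves differed by 1.94. With normexp background correction, the difference of Glycam1 was −5.23.

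Madcam1 gave opposite directions by its 2 probes. The probe from base 736 (chr10:79129132-79129191, plus strand) read 2.29 and 2.05 on the Myd88-/- arrays and 1.31 and 1.33 on the Myd88+/+ arrays. Both Myd88-/- arrays were higher, by a log2 difference of 0.85 of the means (SD 0.17 and 0.01, n = 2 each). The probe from base 1350 (chr10:79131212-79131271, plus strand) read −3.08 and −3.40 on the Myd88-/- arrays and −1.30 and −2.24 on the Myd88+/+ arrays. Here both Myd88-/- arrays were lower, with a difference of −1.47 (SD 0.23 and 0.67, n = 2 each). All 8 readings were well above background. With normexp background correction the second difference shrank to −0.66, and the first was 0.76. The second probe lies at the 3′ end of the transcript and holds the polyadenylation signal AATAAA, as 10.1% of all probes do.

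A disagreement of this kind was uncommon on the array. Of 6060 genes with at least 2 tested probes, 369 (6.09%) had probes whose arrays did not overlap in opposite directions. The 2 Madcam1 differences lay 2.31 apart, and 0.66% of these genes had a span at least as wide, against a median span of 0.21. Which probe tracks the protein-coding Madcam1 transcript was not tested, so no direction is given for the gene.

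Fut7 encodes the fucosyltransferase that finishes the selectin ligands on leukocytes and high endothelial cells. Its brighter probe, from base 1877 (chr2:25281802-25281861), read −3.59 and −2.16 on the Myd88-/- arrays and −0.38 and −1.92 on the Myd88+/+ arrays. The arrays did not overlap, but Myd88-/- array 2 and Myd88+/+ array 2 were only 0.24 apart. The difference of −1.72 became −1.01 without Myd88-/- array 1, −0.96 without Myd88+/+ array 1 and −0.90 with normexp. Its other probe, from base 1596, was well above background on 1 array of each genotype and was not tested. That probe read −5.96 and −3.46 against −3.75 and −6.30, high on the 2 arrays with stronger signal over background and low on the other 2.

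Cxcl13, the chemokine that draws B cells into follicles, read −1.76 and −1.93 on the Myd88-/- arrays (chr5:96389861-96389920, base 935). It read 0.83 and −0.59 on the Myd88+/+ arrays. The Myd88-/- arrays lay close together and below both others, and the means were −1.84 ± 0.12 and 0.12 ± 1.00 (SD, n = 2). The difference of the means was −1.96, and the 2 Myd88+/+ arrays lay 1.42 apart. Without Myd88+/+ array 1 the difference of Cxcl13 was −1.25.

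Cxcr5 is the receptor for CXCL13 on B cells and follicular helper T cells. Its probe (chr9:44320071-44320130, base 2354) gave −0.82 and −2.02 on the Myd88+/+ arrays. It was well above background on neither Myd88-/- array, where it read −6.23, a surrogate, and −4.07. Its signal was lower in the Myd88-/- SGs, with a floored fold of 5.99. The floored fold starts from the Myd88+/+ mean. It is set against the Myd88-/- mean of, on each array, the higher of its own value and the lowest value well above background. It is used in the same way below and is not a minimum, since a probe not well above background can lie above that lowest value. Clec4g, listed below, did so, at −3.91 and −3.72 against lowest values of −3.97 and −4.03 on Myd88-/- arrays 1 and 2. The floored fold holds for the processed signal only. Normexp background correction adds an offset that draws dim values together. With it the difference of Cxcr5 was −1.15, less than the floored fold.

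Ccl19, made by stromal cells of T cell zones, gave 3 readings that moved apart with the place of the probe. The array's annotation places all 3 probes on the plus strand of mm9, whereas the RefSeq entry of Ccl19 lies on the minus strand of GRCm38.p6. The probe from base 22 (chr4:42248526-42248585) read −0.54 and −0.42 on the Myd88-/- arrays and 0.13 and −0.64 on the Myd88+/+ arrays, which overlapped. The probe from base 126 (chr4:42248630-42248689) read −1.57 and −2.04 against −0.33 and −1.33, lower in the Myd88-/- SGs without overlap. The probe from base 415 (chr4:42250105-42250164) read −2.91 and −3.84 against 0.56 and −1.01.

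The differences were −0.22, −0.98 and −3.15 from the 5′ to the 3′ probe. The last corresponds to an 8.9-fold lower signal in the Myd88-/- SGs. With normexp the 3 differences were −0.19, −0.58 and −1.73. Without Myd88+/+ array 1 they were 0.16, −0.48 and −2.37, and without Myd88+/+ array 2 they were −0.61, −1.47 and −3.94. The span of 2.93 between them was reached by 0.33% of the 6060 genes with at least 2 tested probes. When the probes were set against the start of the Ccl19 entry of RefSeq (GRCm38.p6), the probe from base 22 lay wholly before that start, at 131 to 72 bases upstream. The probe from base 126 began 27 bases before it and reached 33 bases into it, and the probe from base 415 was not in that window. RefSeq also lists pseudogenes of Ccl19. Whether their transcripts add to any of the 3 readings was not tested.

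Ccr7, the receptor for CCL19 and CCL21 on naive T cells, B cells and mature dendritic cells, read −3.56 and −3.02 on the Myd88-/- arrays (chr11:99005551-99005610, base 1877). It read 1.64 and 0.43 on the Myd88+/+ arrays, and all 4 readings were well above background. The difference of −4.32 was 20.0-fold, with means of −3.29 ± 0.38 and 1.04 ± 0.86 (SD, n = 2). It was the widest difference among those of the 9 genes measured well above background on all 4 arrays. With normexp it was −2.77.

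**Figure D2:**
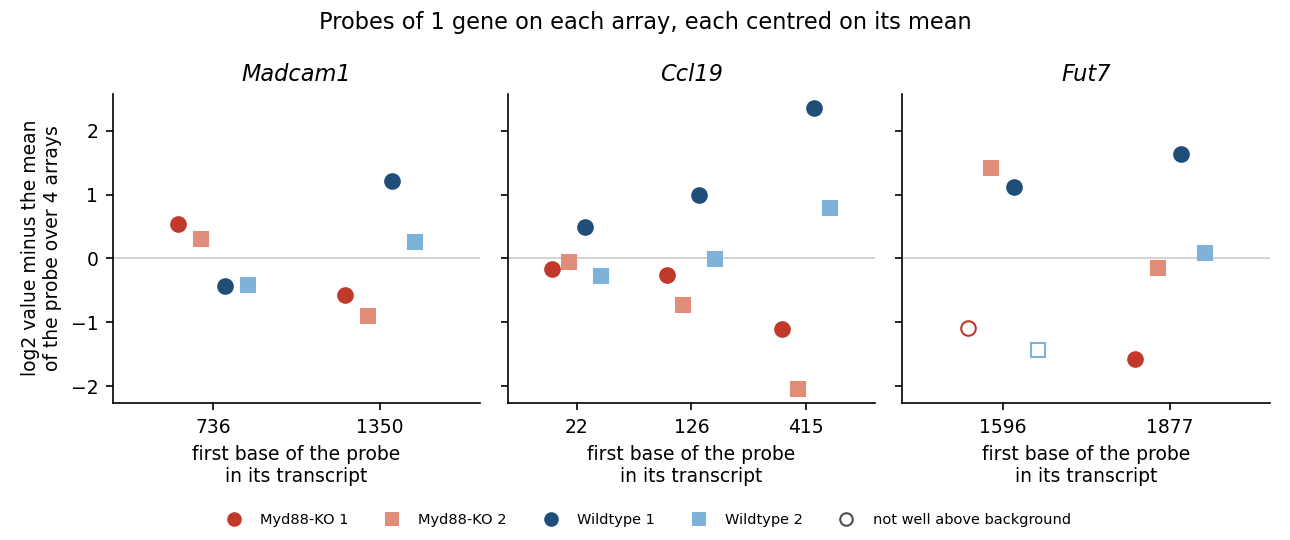
Log2 values of each probe of Madcam1, Ccl19 and Fut7 on the 4 arrays, minus the mean of that probe (y axis), by the first base of the probe in its transcript (x axis). The Myd88-KO arrays are above the Wildtype arrays for the Madcam1 probe from base 736 and below them for the probe from base 1350, and the Ccl19 arrays part more widely towards base 415.

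Ltb encodes lymphotoxin beta, the membrane anchor of the lymphotoxin heterotrimer. It read 0.82 and 0.41 on the Myd88-/- arrays and 3.20 and 2.25 on the Myd88+/+ arrays (chr17:35333097-35333156, plus strand, base 941). The arrays were far apart, with a difference of −2.11 (SD 0.29 and 0.67, n = 2 each), or 4.31-fold.

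Lta encodes lymphotoxin alpha, and its probe lies 7118 bases from that of Ltb, on the other strand (chr17:35340275-35340334, base 1158). It was printed in 10 spots, of which 1 was left out as an outlier on Myd88-/- array 2. Their means were −5.04 and −2.10 on the Myd88-/- arrays and −1.5 and −3.39 on the Myd88+/+ arrays, so the genotypes overlapped. On Myd88-/- array 1, 1 of 10 spots was well above background, and the spots ranged from −6.10 to −3.85. On Myd88+/+ array 1 all 10 were, and they ranged from −1.69 to −1.32.

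Lta read higher on the array with stronger signal over background within each genotype. Between arrays with a like share of probes above background, its log2 differences were −1.64 (Myd88-/- array 1 and Myd88+/+ array 2) and −0.60 (Myd88-/- array 2 and Myd88+/+ array 1). The first rests on a value not well above background, −5.04 on Myd88-/- array 1. These pairs were also chosen after seeing the data, so no direction is read from them. The difference of the group means of Lta was −1.12, which turned to 0.34 without Myd88-/- array 1. It was −2.59 without Myd88-/- array 2, −0.18 without Myd88+/+ array 1, −2.07 without Myd88+/+ array 2 and −0.21 with normexp. In the same 2 pairs the differences of Ltb were −1.43 and −2.79, and those of Ccr7 were −3.99 and −4.66. By the brightest probe, those of Ccl19 were 0.1 and −0.55 and those of Madcam1 were 0.96 and 0.74.

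The promoters of the genes were searched in RefSeq (GRCm38.p6) over the 250 bases before each start. Of the 9 genes, 7 had an entry, and Fut7 had 2. NF-kB, the transcription factor family on which MyD88 and lymphotoxin receptor signals converge, binds a known consensus of 10 letters, which was searched by that definition on both strands. Madcam1 held 2 matches and Ltb held 1, and the other 5 genes held none. Of all 32851 promoters, 3.9% held at least 1 match. The AP-1 motif TGANTCA was in none of the 7 (6.75% of all promoters), and TATAAA was in those of Cxcl13 and Lta (12.4% of all). The 2 promoters with an NF-kB match are shown with the match in capitals, to let the shared letters be seen.
Madcam1, chr10:79664309-79664558, plus strand: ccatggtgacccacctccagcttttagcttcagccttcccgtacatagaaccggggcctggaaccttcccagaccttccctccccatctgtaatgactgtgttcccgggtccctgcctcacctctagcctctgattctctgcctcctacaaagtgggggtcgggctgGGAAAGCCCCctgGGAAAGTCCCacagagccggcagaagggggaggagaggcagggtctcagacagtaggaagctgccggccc
Ltb, chr17:35194257-35194506, plus strand: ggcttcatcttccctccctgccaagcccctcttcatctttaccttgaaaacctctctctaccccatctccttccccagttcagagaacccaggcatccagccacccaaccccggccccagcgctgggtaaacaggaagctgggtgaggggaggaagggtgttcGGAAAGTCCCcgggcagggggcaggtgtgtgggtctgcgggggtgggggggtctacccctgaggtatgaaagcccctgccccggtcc
The run GGAAAGTCCC stood in both, starting 70 bases before the start of Madcam1 and 87 bases before that of Ltb, and 46 of all promoters (0.14%) held it on either strand. A match describes letters and shows no binding.

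The 2 Myd88+/+ arrays differed from each other in these genes. Of the 9 genes, 8 read higher on Myd88+/+ array 1 than on array 2, by a median of 1.21 on the log2 scale, and Madcam1 alone was 0.02 lower. Over all genes tested the share higher on array 1 was 49.9%. It was 63.3% over the 11269 genes whose mean lay under 0. Without Myd88+/+ array 1, the difference of Ccl19 by its brightest probe turned to 0.16.

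The genes whose profile over the 4 arrays lay closest to Glycam1, Ltb and Cxcl13, each gene centred on its mean, are given by name. For Glycam1 they were 3 immunoglobulin heavy chain probes, 1 annotated as serum IgG2a and 2 as the J558 family, at root mean square differences of 0.67 to 0.94. For Ltb they were Tnfrsf13b, a B cell receptor for BAFF and APRIL (0.03), Rac2, a small GTPase of blood cells (0.10), and Coro1a, an actin-binding protein of leukocytes (0.10). For Cxcl13 they were Gpr171 (0.04), Dnase1l3 (0.09) and an immunoglobulin kappa variable segment (0.14). The 3 genes nearest to Cxcl13 were well above background on neither Myd88-/- array. Glycam1 itself and 2 of its 3 neighbours were so on only 1 of 2 Myd88-/- arrays, and likeness to both genes rests partly on values too dim to measure. With 4 arrays this likeness is a description only.

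None of the 22312 genes passed an adjusted p of 0.05 (limma, Benjamini-Hochberg), and the smallest adjusted p was 0.194. With other settings the count was 79 (normexp), 402 (arrays scaled to the median of all spots) and 482 (trended and robust moderation). At an unadjusted p under 0.05, 1525 genes (6.83%) were lower and 2190 (9.82%) higher in the Myd88-/- SGs, together 3715, and the adjusted call rate was 0%. Without Myd88+/+ array 1 the unadjusted calls numbered 2307, without Myd88+/+ array 2 they numbered 2192, with the replicate number as a block 2410 and with median scaling 995. The lower genes made up 41.0% of these calls, but 75.9% when arrays were scaled to the median of all spots and 53.3% when they were scaled to the 75th percentile of probes detected on all arrays. The methods' t-test called 2935 genes before adjustment and 1 after it. With 2 arrays against 2, no exact permutation p can fall below 0.333. The lists that follow were written with earlier results of these arrays known, and are given by counts and medians. Their counts without overlap stand beside 18.7% lower and 33.2% higher over all genes tested.

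Genes of vascular address and lymphocyte entry, 24 on the array, were tested in 21 cases. Of these, 13 were lower and 3 higher without overlap of the arrays, and the median difference was −0.54, or −0.21 with normexp. Itgb7, the beta chain of the MAdCAM-1 receptor, differed by −2.39, and Gcnt1, an enzyme of O-glycan branching, by −2.67. Endothelial Emcn (0.36) and Podxl (0.23) and the sialyltransferase St3gal4 (0.35), the brightest of the list, differed upwards, though another probe of Podxl differed by −0.06. Sele was well above background on no array.

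The other homing chemokines and receptors, 17 on the array, had 16 tested, with 9 lower and 4 higher without overlap and a median of −0.56. That median was −0.12 with normexp and −0.24 over genes well above background on all 4 arrays. Ccr6, a receptor of B cells and some T cells, read 0.06 and −1.09 on the Myd88+/+ arrays. On the Myd88-/- arrays it read −6.17 (not well above background) and −3.25. Cxcr4 was lower (floored fold 3.8), and Ccl5, a chemokine of activated T cells, differed by −2.16. With normexp Ccr6 differed by −1.67 and Cxcr4 by −0.62, less than its floored fold. The epithelial chemokine Ccl28, brightest of the list, differed by 0.41 and Ccl25 by 0.30. Ccl20 was well above background on no array.

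Ccl21, the other ligand of Ccr7, had no probe under the names Ccl21a, Ccl21b or Ccl21c. A probe named Gm13304, picked out after the lists were written, is annotated to 4 transcripts, which RefSeq names Gm13304, Gm10591, Ccl21b and Ccl21c. It read 5.86 and 5.46 on the Myd88-/- arrays and 6.26 and 5.72 on the Myd88+/+ arrays. The arrays overlapped, with a difference of −0.33. The reading of this probe, which 4 transcripts share, and that of the receptor thus stood at −0.33 and −4.32. Those of Ccl19 ran from −0.22 to −3.15 by probe.

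Lymphotoxin receptor signalling, with 14 of 15 genes tested, had 2 genes lower and 5 higher without overlap and a median of 0.05, which ranged from −0.05 after quantile normalization to 0.15 without Myd88+/+ array 1 (0.11 without Myd88-/- array 1, 0.02 without Myd88+/+ array 2). Ltbr, the lymphotoxin beta receptor and the brightest of the list, read 3.91 and 3.92 against 3.52 and 3.54, a difference of 0.38. Tnfrsf14 (0.26) and Tnfrsf1a (0.24) also differed upwards. Map3k14, the NF-kB inducing kinase, differed by −0.59 (−0.38 with normexp) and at another probe by 0.08. Birc2 differed by −0.06, which was −0.12 with median scaling. Tnf, which lies between Lta and Ltb, read −4.07 and −3.73 against −3.46 and −4.04, with overlap and a direction that turned with normexp. The ligand Ltb and its receptor thus differed in opposite directions.

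Genes of lymphoid tissue inducer and organiser cells had 9 of 12 tested, with 3 lower and 3 higher without overlap and a median of 0.20, which was −0.35 with no filter on dim probes, 0.31 over genes well above background on all 4 arrays, 0.02 without Myd88-/- array 1 and −0.01 without Myd88+/+ array 1. The 3 lower genes were Il7r (floored fold 7.39), Il2rg (−2.65) and Tox (−1.37, measured on 1 of 2 Myd88-/- arrays), which lymphocytes also use. With normexp these 3 differed by −1.26, −1.36 and −0.31. Tnfrsf11a (0.33) and Rora (0.31) differed upwards, and Id2, the brightest, overlapped. Of follicular dendritic and reticular stroma genes, all 11 were tested, 10 lower and 1 higher without overlap, with a median of −0.67. That median was −0.33 with normexp and −0.43 over genes well above background on all 4 arrays. Tnfrsf13c, also the BAFF receptor of B cells, was lower by its brighter probe (floored fold 13.8), while its other probe differed by −0.48. Fcer2a, also on B cells, differed by −2.06, and Clec4g was lower (floored fold 2.73). With normexp Tnfrsf13c differed by −1.93, Fcer2a by −1.05 and Clec4g by −0.33. Mfge8, brightest of the list, differed by −0.67, and Cr1l by 0.05, a direction that turned after quantile normalization (−0.02).

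**Figure D3:**
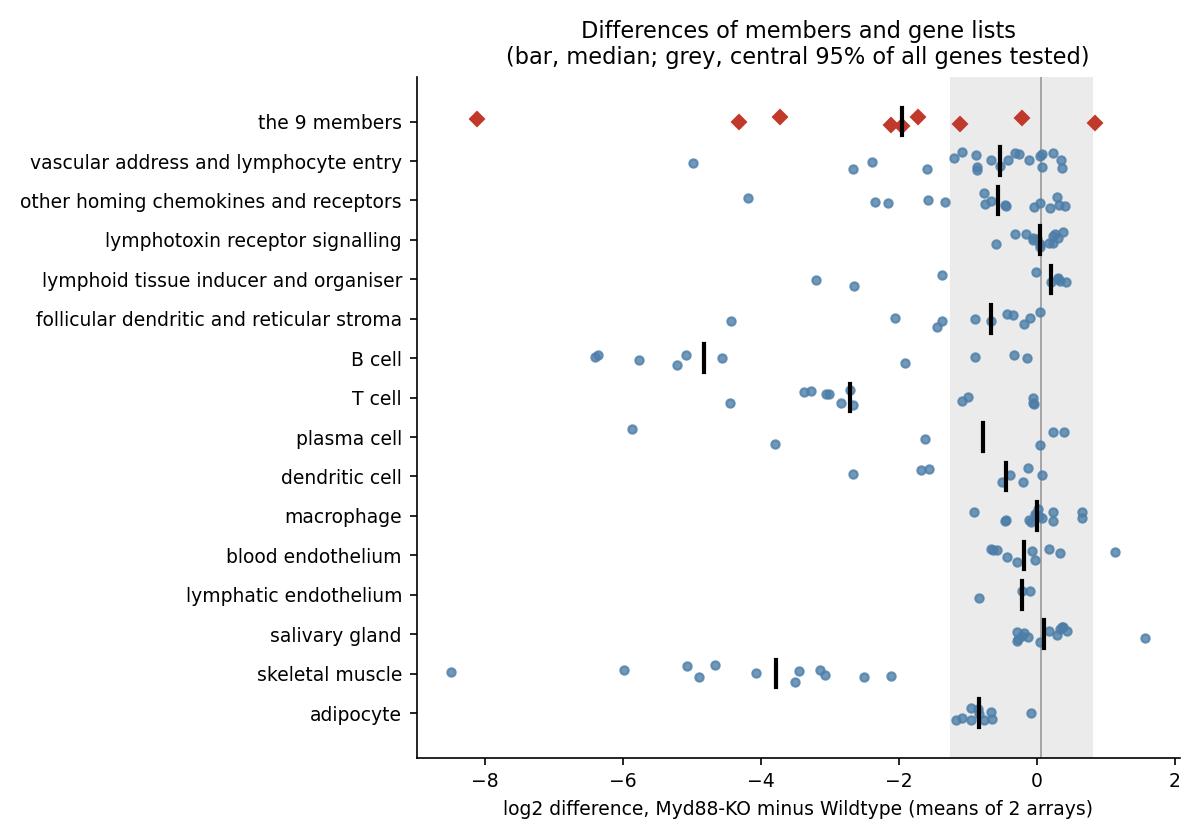
Log2 difference, Myd88-KO minus Wildtype (x axis, means of 2 arrays), of each tested gene of the 9 members (diamonds) and of 15 gene lists (points), 1 row each. Bars are medians, from −4.82 for B cell genes to 0.20 for inducer and organiser genes, and the grey band holds the central 95% of all genes tested, −1.25 to 0.80.

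Markers of several cell types moved with the members, and their part in the members' differences was not tested. Whether lymph node tissue remained in any sample was not tested either. Of the 10 B cell genes tested, 8 were lower without overlap and none higher, and the median was −4.82. It was −1.66 with normexp and −0.61 over genes well above background on all 4 arrays. Faim3 (floored fold 40.2) and Ms4a1 (CD20, floored fold 28.5) were lower, each well above background on neither Myd88-/- array. With normexp Faim3 differed by −3.31 and Ms4a1 by −2.90. Pou2af1, the brightest, overlapped. The summed signal of the list was 5.05 and 4.76 times the 75th percentile on the Myd88-/- arrays, and 24.4 and 13.3 times on the Myd88+/+ arrays.

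Of the 13 T cell genes tested, 10 were lower without overlap and none higher, with a median of −2.71, or −1.14 with normexp. Cd3d (−4.45), Cd5 (−3.38) and Cd3g (−3.27) had the largest differences, each measured on 1 of 2 Myd88-/- arrays, and with normexp they differed by −2.32, −1.94 and −1.14. Cd4, the brightest, overlapped. The summed signal was 13.2 and 12.7 against 27.5 and 19.5.

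Plasma cell genes were split, with 3 lower and 1 higher of 6 tested and a median of −0.78, which was −0.27 with normexp, 0.05 with no filter on dim probes and 0.23 over genes well above background on all 4 arrays. Jchain (−5.87), Mzb1 (floored fold 8.01) and Irf4 (−1.62) were lower. Jchain and Irf4 were well above background on only 1 of 2 Myd88-/- arrays. The differences of these genes rest partly on a value too dim to measure well. With normexp Jchain differed by −2.98, Mzb1 by −1.37 and Irf4 by −0.62. Sdc1, also epithelial, differed by 0.39, and Xbp1, brightest and active in secretory epithelium, overlapped. The sums were 151 and 138 against 149 and 105, of which Xbp1 made up at least 96.8% on each array. Tnfrsf17 was well above background on no array. Dendritic cell genes, with 8 tested, had 6 lower and 0 higher without overlap and a median of −0.45, or −0.17 both with normexp and over genes well above background on all 4 arrays. H2-DMb2 (floored fold 2.80), Clec9a (floored fold 1.18) and Flt3 (−1.56, measured on 1 of 2 Myd88-/- arrays) were lower by their brightest probe. Other probes, which here and in the other lists may include dim ones that were not tested, went the opposite way, by 0.69 for Clec9a and by 0.18 and 0.56 for Flt3. With normexp H2-DMb2 differed by −0.52, Clec9a by −0.08 and Flt3 by −0.46. Siglech, the brightest, overlapped, and its other probes differed by −1.78 and −0.43. Siglech made up at least 97.6% of the sums, which were 272 and 287 against 250 and 282, and Ccl22 was well above background on no array.

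Macrophage genes did not share the direction. Of 14 tested, 1 was lower (Mpeg1, −0.46, and 0.30 at another probe) and 3 higher without overlap (Adgre1, 0.65; Marco, 0.65; Cd14, 0.24), with a median of 0.01, which was −0.05 after quantile normalization and ran from −0.20 to 0.16 without 1 array (Myd88+/+ array 2 and Myd88+/+ array 1), and Itgam, the brightest, overlapped. The sums were 123 and 113 against 106 and 99.4. Blood endothelial genes, which the vessels that bear Glycam1 and Madcam1 also use, had 5 lower and 1 higher of 10 and a median of −0.18, or −0.06 without Myd88+/+ array 1 and −0.33 without Myd88+/+ array 2. Cldn5 (−0.66), Cdh5 (−0.64) and Tie1 (−0.57, or −0.36 with normexp) were lower, Plvap differed by 0.18, and Kdr, the brightest, overlapped. Their sums were 41.5 and 44.9 against 36.2 and 43.4. Lymphatic endothelial genes had 3 tested, all lower without overlap. Lyve1 differed by −0.84 (−0.45 with normexp). Mmrn1 differed by −0.22 (−0.07 with normexp), and by 0.39 at another probe. Pdpn, the brightest, differed by −0.10 (−0.16 with the 75th percentile of detected probes). Mmrn1 and Pdpn barely parted. Mmrn1 read −1.70 on both Myd88-/- array 1 and Myd88+/+ array 2 to the digits shown. Pdpn read 0.48 on Myd88-/- array 1 and 0.49 on Myd88+/+ array 1. The median of the 3 genes was −0.22, or −0.11 without Myd88+/+ array 1 and −0.42 without Myd88+/+ array 2. Their sums were 1.96 and 1.76 against 2.33 and 2.05, and Prox1 and Flt4 were well above background on no array.

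Genes of muscle and fat differed as well, of which the labels name fat among the tissues dissected away. All 12 skeletal muscle genes tested were lower without overlap, with a median of −3.78, or −1.97 with normexp. Myh4 was lower (floored fold 218), Tnnc2 differed by −5.99 and Tnni2 by −5.07, and the brightest, Acta1, by −2.11. Myh4 read 2.47 and 5.06 on Myd88+/+ arrays 1 and 2, and its floored fold rests on their mean. With normexp Myh4 differed by −5.69, less than its floored fold. The sums were 3.08 and 3.14 on the Myd88-/- arrays against 23.1 and 130 on Myd88+/+ arrays 1 and 2. Within the Myd88+/+ arrays muscle ran against the members: 11 of the 12 muscle genes were higher on array 2, whereas all 10 B cell genes, 12 of 13 T cell genes and 8 of the 9 members were higher on array 1.

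Of 10 adipocyte genes tested, 9 were lower without overlap, with a median of −0.84, or −0.44 without Myd88-/- array 1. They included Pparg (−1.17), Plin1 (−1.09) and Plin4 (−0.96), and Fabp4, the brightest, differed by −0.84. The sums were 194 and 326 against 443 and 445, and Lep was well above background on no array. Salivary gland genes, all 14 tested, had 3 lower and 7 higher without overlap and a median of 0.11, which was −0.10 after quantile normalization, 0.05 with normexp or without either Myd88-/- array 1 or Myd88+/+ array 1, and 0.21 without Myd88-/- array 2. Smgc (1.57), Lpo (0.44) and Pip (0.38, but 0.07 after quantile normalization) were higher, Krt19 (−0.28) and Krt5 (−0.27) lower, and Dcpp2, the brightest, differed by 0.34 and by −0.02 after quantile normalization. Their sums were 9690 and 9200 against 7370 and 7920.

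**Figure D4:**
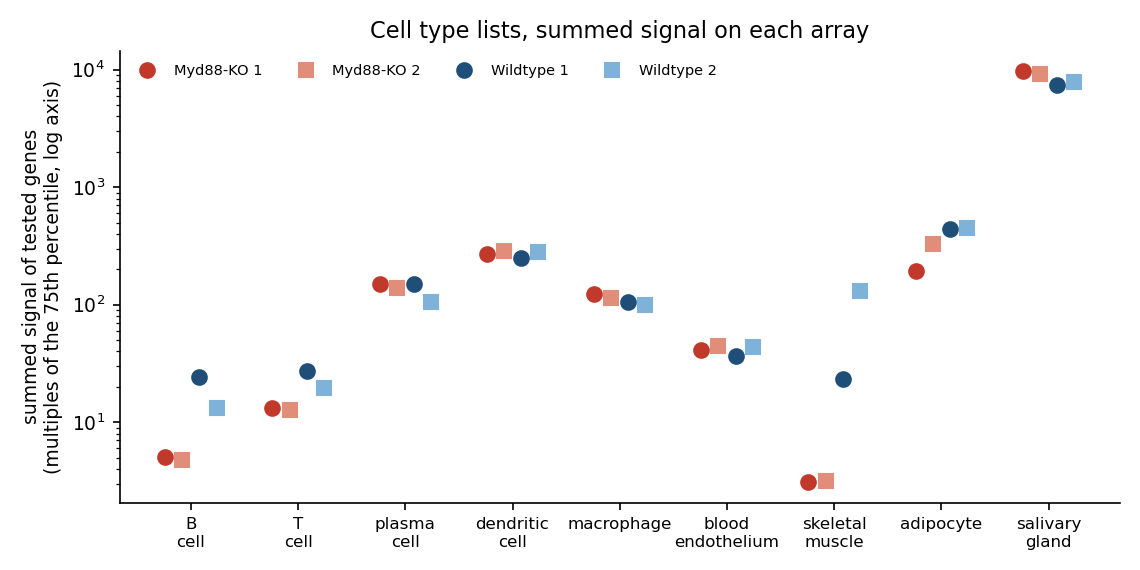
Summed signal of the tested genes of 9 cell type lists on each array, in multiples of the 75th percentile of the array (y axis, log scale). The B cell sums are 5.05 and 4.76 on the Myd88-KO arrays and 24.4 and 13.3 on the Wildtype arrays, and the skeletal muscle sums are higher on Wildtype array 2 than on Wildtype array 1.

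RNA quality was read from 2734 genes with 2 probes at least 500 bases apart, both well above background on all arrays. The median log2 signal of the 3′ over the 5′ probe was 1.34 and 1.15 on the Myd88-/- arrays and 1.29 and 1.46 on the Myd88+/+ arrays. The genotypes overlapped in this measure, and why the probes of Madcam1 and Ccl19 part was not tested.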

How the data were processed

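Total RNA of 2 Myd88-/- and 2 Myd88+/+ SGs was hybridised to 1 array each, all on 1 slide. The deposited intensity values were made by the authors with Agilent Feature Extraction 10.7.3.1, which subtracted a spatial background, detrended the signal and replaced spots too dim to measure with surrogates. Per the file headers, probe positions are on mm9, and the well-above-background, outlier and surrogate marks are other values set by that software. Differences that rest on dim spots therefore depend on the background correction.

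From these, log2 processed signal minus the 75th percentile over 59305 non-control spots of the array was computed. Spots marked as outliers were left out and the spots of a probe averaged. A probe entered the comparison where 1 genotype or both had it well above background on each of its arrays, and of several such probes the brightest represented the gene. Genes were fitted with limma 3.58.1 in R 4.3.3, without covariates, with Benjamini-Hochberg adjustment, after a check on simulated data. Figures were drawn with matplotlib 3.10.9 under Python 3.11.15. The number of arrays limits the precision, and p-values measure the spread between these samples, which may be technical.

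The 9 members and the 15 lists (192 genes) were chosen with earlier results of these data known. Named are all members, Myd88 and Hprt; in each list up to 3 genes with the largest decrease and up to 3 with the largest increase among those whose arrays did not overlap, the brightest gene and those well above background on no array; and for Glycam1, Cxcl13 and Ltb the 3 genes of nearest profile. Some genes that this rule takes are not named here, but they count in their lists. Names follow the array design, with older names matched through aliases. The 14 planned and 3 added alternatives are given in the closing section. A table of 4 columns of normalized values was not used, because its column names match no sample.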

Additional observations from a re-analysis of the deposited data

How the results depend on the processing

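The values were recomputed with 14 other settings chosen in advance and 3 added after seeing the data, 1 of which was run on each of 2 pairs of arrays. The count of genes past the adjusted threshold, 0, became 79 with normexp, 402 with median scaling, 482 with trended and robust moderation and 1 with the methods' t-test. Genes with an unadjusted p under 0.05 numbered 995 with median scaling, and genes whose arrays do not overlap numbered 3050. Leaving out 1 array at a time gave 2192 to 3033 unadjusted calls, where the lone array of a genotype is assumed to vary like the other group. Over the 6 members well above background on all 4 arrays, 5 were lower, fewer because fewer were tested. Madcam1 turned to −0.31 with the mean of its probes and to −1.47 with the probe nearest the 3′ end, because its probes part. Lta turned to 0.34 without Myd88-KO replicate 1. Ccl19 turned to 0.16 without Wildtype replicate 1 and to 0.1 between Myd88-KO replicate 1 and Wildtype replicate 2. Otherwise the cause was not tested. The differences of Glycam1, Cxcl13, Ltb, Fut7, Ccr7 and Cxcr5 were negative under every alternative that gave them a value. Glycam1 and Cxcr5 had no value over genes well above background on all 4 arrays. The other Fut7 probe, which differed by 0.31, was not tested and entered none of the alternatives. These genes were chosen on the same 4 arrays, so nothing is read from the constant sign. Signal over background limits dim genes, since a value near background can be measured on some arrays and lost on others.

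With the replicate number as a block, 2410 genes had an unadjusted p under 0.05 and 0 passed adjustment in limma. The deviations of same-numbered arrays from their group means correlated at −0.373 over 22312 genes. Crossed pairing, chosen after seeing the data, gave 4157 unadjusted calls and 0 adjusted calls.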
